A study of Mus musculus with 12 samples.

Results

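The genes described here are 38 nucleolar ribosome biogenesis factors of the mouse, the proteins that transcribe, modify, cut and fold ribosomal RNA and load it with ribosomal proteins. They were taken as a list of gene symbols by a rule that names no measured value, but the list was chosen with earlier results of these data known. Each of the 38 had 1 row among the 18929 rows of the expression table and passed the filter on low values. The samples were T cells of C57BL/6 mice kept for 5 days under conditions that drive T helper 1 (Th1) differentiation, from which sorted cells were sequenced. There were 3 libraries labelled Sdhc cKO (called cKO 1, 2 and 3) and 3 of wild-type genotype (control 1, 2 and 3). Sdhc encodes a subunit of succinate dehydrogenase, the respiratory complex II that is also an enzyme of the TCA cycle, and cKO stands for a conditional knockout. The labels do not give the driver of the deletion, the gate of the sort, or the origin of each replicate in a separate animal or culture. P-values therefore stand against the spread of these libraries alone, and that spread may be technical. The series' 12 samples also include empty-vector, Slc25a1 KO and Slc25a11 KO cells, and these 6 samples were not analysed here.

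Ribosomes are assembled in the nucleolus, where RNA polymerase I copies the ribosomal DNA into a long precursor. Small nucleolar ribonucleoproteins (snoRNPs) guide the methylation and pseudouridylation of that precursor, the small-subunit processome and the large-subunit assembly factors cleave and fold it, and the 2 subunits leave the nucleus separately. In T cells the pathway is switched on when the cell leaves quiescence, grows and divides, and the transcription factor MYC is a known activator of many of its genes.

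The libraries held the markers of T cells, and 2 of the 3 Th1 genes among them, Ifng and Tbx21, had lower values in every cKO library. A sum over 10 T cell genes, made up mostly of Cd3, Cd4 and T cell receptor genes, gave 48680 to 56041 normalised counts, highest in cKO 1, and none of the 10 was at 0. Ifng, the gene of the Th1 cytokine interferon gamma, had 858, 880.3 and 865 normalised counts in cKO 1, 2 and 3, against 1342, 1461 and 1342 in control 1, 2 and 3. Tbx21, which encodes the Th1 transcription factor T-bet, had 1371, 1501 and 1489 normalised counts in cKO 1, 2 and 3, against 1659.7, 1961 and 1759.9 in control 1, 2 and 3. For both genes every cKO value was below every control value, as for 5.64% of all tested genes. Neither passed an adjusted p threshold of 0.05 on genotype alone (limma), where 0 of 12699 genes did. The third, the chemokine receptor gene Cxcr3, overlapped between the groups. Sums were 235 to 547 for 2 CD8 T cell genes, at most 12.9 for 2 granulocyte genes and at most 93.1 for 4 erythroid genes. The myeloid gene Cd14 and the granulocyte gene Mpo were at 0 in at least 1 library. The sums of 5 myeloid genes were 186, 93.1 and 138 in cKO 1, 2 and 3, against 139, 107 and 103 in control 1, 2 and 3. The sum was highest in cKO 1, and control 1 and cKO 3 were nearly level behind it. Itgam and Cd68 made up most of each sum. Itgam was highest in both libraries numbered 1, and Cd68 was highest in cKO 1 and next in cKO 3. Csf1r and Lyz2, at low counts, were lowest in both libraries numbered 1. The sum of 4 NK cell genes was highest in both libraries numbered 1. It was 269, 103 and 114 in cKO 1, 2 and 3, against 359, 149.96 and 175 in control 1, 2 and 3. Klrk1, Klrd1 and Klrb1c were each highest in both libraries numbered 1. Ncr1 was not, with its highest value in control 3 and the next in cKO 3. The part of the myeloid or the NK cell list in the values of the 38 factors was not tested. The libraries held 18144933 to 21983821 counted reads. Both libraries numbered 1 stood apart in sex-linked transcripts. Summed over Eif2s3y, Uty, Kdm5d and Ddx3y, which lie on the Y chromosome, the share was 0.207, 193 and 189 RPM (reads scaled to the library total) in cKO 1, 2 and 3, against 0.0480, 131 and 55.1 RPM in control 1, 2 and 3. Sdhc, the targeted gene, had 1452, 1562 and 1655 normalised counts in cKO 1, 2 and 3, against 1683, 1602 and 1892 in control 1, 2 and 3, which comes to -0.15 in log2 units (limma adjusted p = 0.978, SE 0.09), and counts per gene do not resolve a deleted exon.

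All 38 factors had lower mean levels in the cKO libraries than in the controls, by small amounts that did not pass the test. The log2 fold changes, computed as cKO over control on the log2(normalised count + 1) scale, ran from -0.47 for Ccdc86 to -0.04 for Npm1 with a median of -0.22, while 54.1% of the 12699 genes tested had a negative value and their median was -0.01. None of the 38 passed an adjusted p threshold of 0.05 (limma, Benjamini-Hochberg over all genes tested), and neither did any gene of the table, so the background share of called genes was 0%. At an unadjusted p under 0.05, limma placed 1 of the 38 and 1.53% of all genes lower, and 3.5% of all genes in either direction. edgeR called 0 genes at the adjusted threshold, with 1 of the 38 and 455 genes (3.58%) at an unadjusted p under 0.05, and DESeq2 called 0 of the 38 and 0.0157% of all genes. Normalised counts are the reads on a gene divided by 1 size factor per library, so they compare libraries, and between genes they are compared below only per length.

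The low values belonged above all to the library cKO 1. It was the lowest of the 6 for 36 of the 38 factors, against 32.0% of all tested genes, and the library control 2 was the highest for 25 of the 38, against 18.8% of all tested genes. The median distance of the factors from their own mean over the 6 libraries was -0.41 in cKO 1, 0.16 in cKO 2 and -0.04 in cKO 3, against -0.14 in control 1, 0.23 in control 2 and 0.22 in control 3, on the log2 scale. The within-group SD of single factors had a median of 0.26, against 0.17 for all tested genes, and 31 of the 38 lay above 0.17. In bulk RNA, fewer cells with an active nucleolus and less RNA per cell cannot be told apart.

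**Figure D1:**
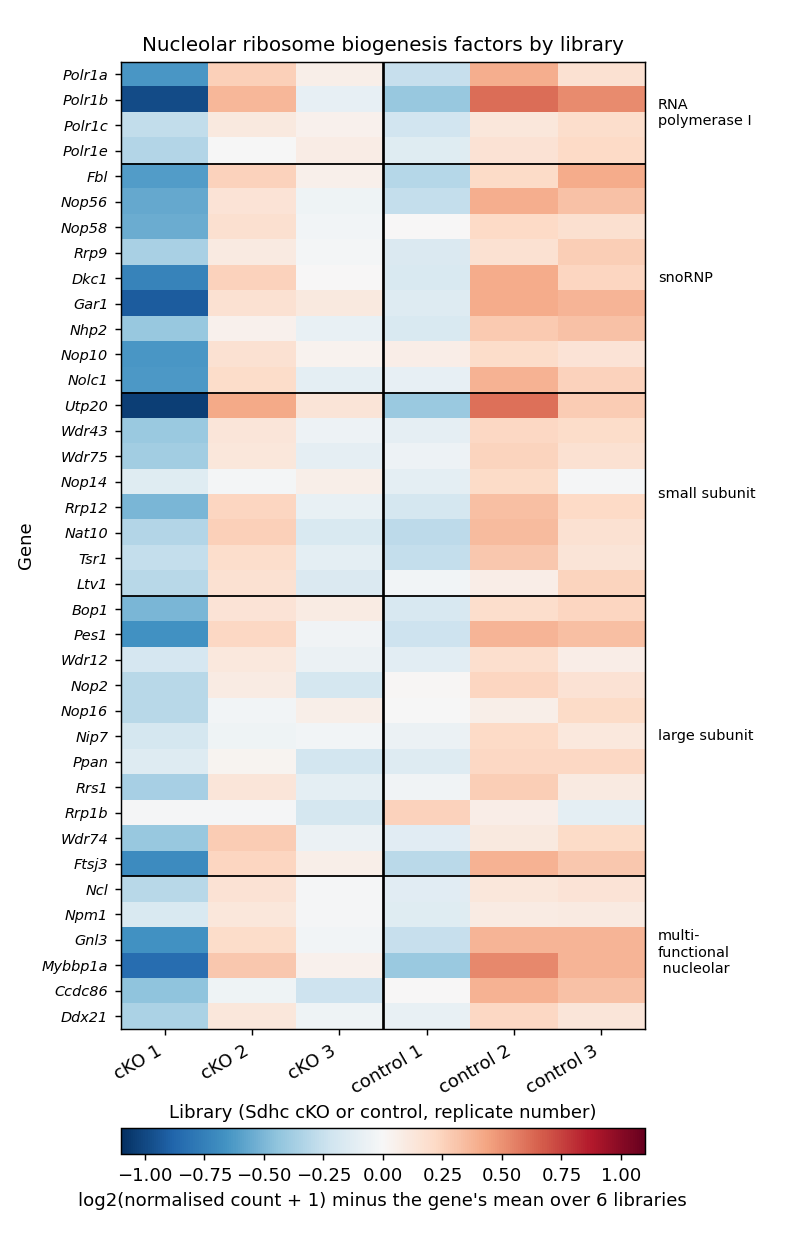
Each cell gives a factor's log2(normalised count + 1) in 1 library minus that factor's mean over all 6, with the 3 Sdhc cKO libraries left of the line and the 3 controls right of it, and the factors in 5 role classes. The lowest value of the row stands in cKO 1 for 36 of 38 factors, control 1 lies below the mean for 33 of 38, and control 2 lies above it for all 38.

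When libraries with the same replicate number were set side by side, most factors were lower in the cKO library each time. For number 1 it was 37 of 38, with a median log2 difference of -0.30. For number 2 it was 33 of 38, with a median of -0.13, and for number 3 it was 37 of 38, with a median of -0.26. The same comparisons over all tested genes had medians of -0.03, -0.01 and -0.01. Of the 38 factors 31 were lower in all 3 comparisons, against 21.8% of all tested genes. With the replicate number as a block in the fit, 25 of the 38 were lower at an unadjusted p under 0.05, against 8.01% of all genes. In that fit 0 of the 38 passed the adjusted threshold, against 0.00787% of all genes (smallest limma adjusted p = 0.244 among the 38). The block fit has 2 residual degrees of freedom. The labels do not state a pairing, and the pairing was taken from correlations between these same libraries, so these p-values are not independent of that choice.

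The size of the median depended on single libraries, in both directions. Without cKO 1, 28 of the 38 fold changes were negative and the median was -0.05, and without control 2 it was -0.15. Without cKO 2 the median was -0.36, and without control 1 it was -0.33. Without both libraries numbered 1, all 38 were negative with a median of -0.18, and 14 of 38 were lower at an unadjusted p under 0.05, against 4.5% of all genes.

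With the Y-linked share of reads as a numeric covariate, 22 of the 38 factors fell in the cKO libraries at an adjusted p under 0.05 (limma), where 4.86% of all tested genes were called lower. The median of the 38 was then -0.38, and that of all genes -0.01. In edgeR on the recovered reads with the same covariate 19 of the 38 were lower, all of them among the 22, against 3.35% of all genes; Bop1, Rrp12 and Rrs1 were called by limma alone. The Y-linked share was uneven between the groups, at 0.207, 193 and 189 RPM in cKO 1, 2 and 3. In control 1, 2 and 3 it was 0.0480, 131 and 55.1 RPM. It enters the fit as a straight line, and its part in the fold changes cannot be fully told apart from that of genotype. The covariate fit in limma has 3 residual degrees of freedom, and its calls depended on single libraries. Without cKO 1 the covariate fit called 0 of 38 and without control 2 it called 5, while it called 20 without cKO 2, 10 without cKO 3, 22 without control 1 and 17 without control 3. In each of these 6 fits all 38 fold changes were negative, and their median, between -0.41 and -0.34, was -0.41 both without cKO 1 and without control 2.

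**Figure D2:**
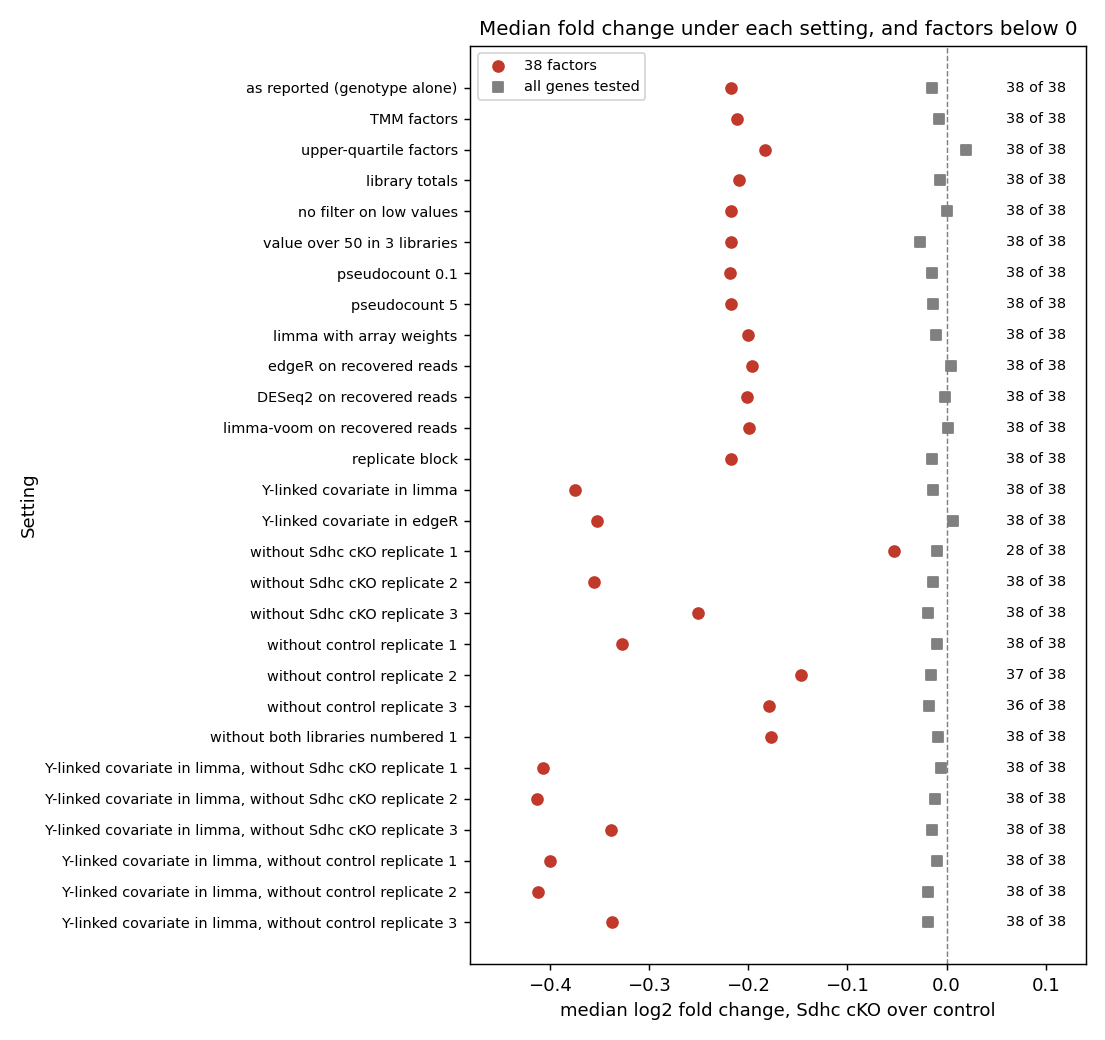
Median log2 fold change, Sdhc cKO over control, of the 38 factors (circles) and of all tested genes (squares) under each setting tried, with the number of factors below 0 at the right. The circles lie between -0.41 and -0.05, and the squares between -0.03 and 0.02.

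**Figure D3:**
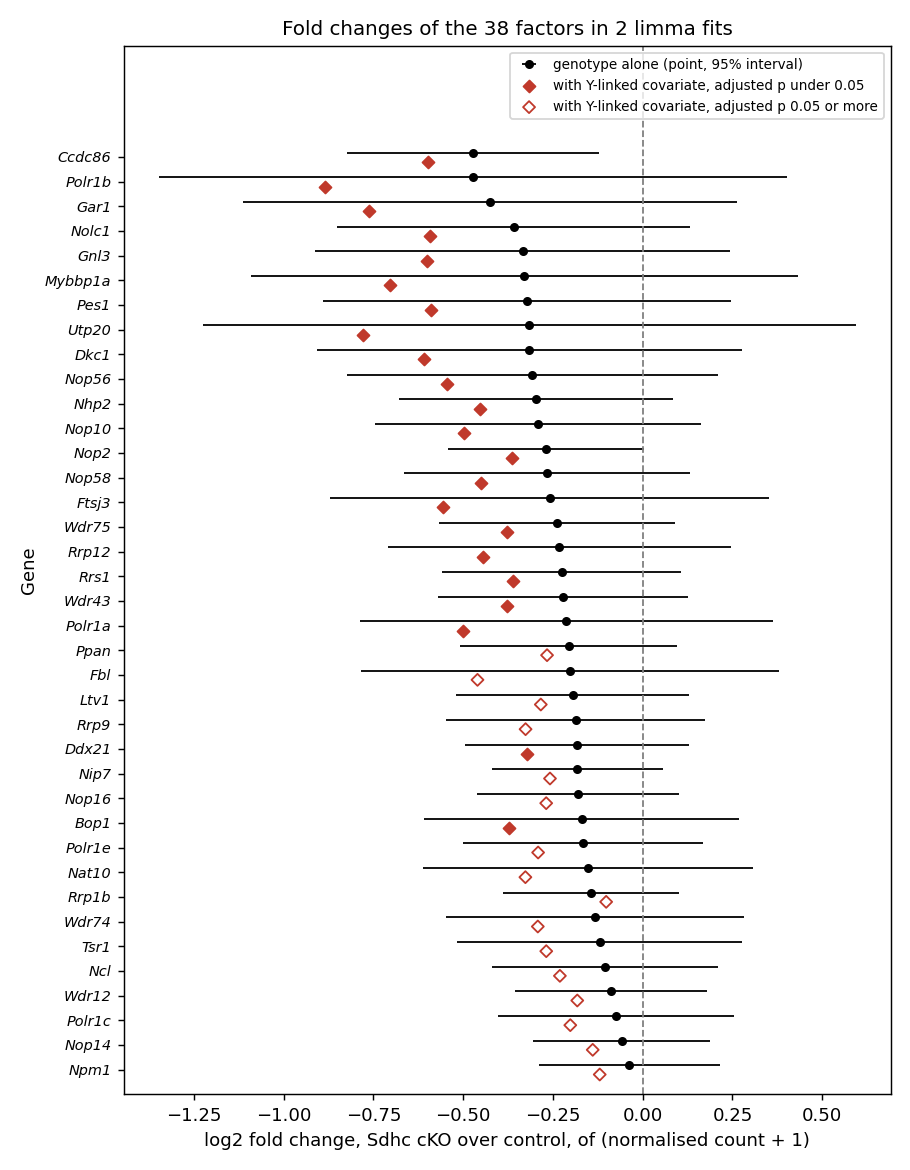
Points and bars give the log2 fold change, Sdhc cKO over control, with its 95% interval from the limma fit on genotype alone, and diamonds give the fold change with the Y-linked share as a covariate, filled where the adjusted p was under 0.05. All 38 points lie left of 0, the interval of 1 factor, Ccdc86, lies wholly below 0, and 22 diamonds are filled.

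RNA polymerase I was represented by 4 subunits, which had log2 fold changes of -0.47 to -0.07. Polr1b, which encodes the second-largest subunit and forms the catalytic centre together with the largest, had 247, 628 and 458 normalised counts in cKO 1 to 3, against 365, 747 and 699.6 in control 1 to 3. The 2 libraries numbered 1 were below all others, and the groups overlapped. Its means were 445 ± 191 in the cKO libraries and 604 ± 208 in the controls (SD, n = 3 each), which is -0.47 in log2 units with an SE of 0.38 and a 95% interval of -1.35 to 0.40, and with the covariate it was -0.89 (limma adjusted p = 0.0187). Polr1a, the gene of the largest subunit, had 931, 1743 and 1519.6 normalised counts in cKO 1 to 3, against 1223, 1918 and 1639 in control 1 to 3, again with the lowest value in cKO 1 and the highest in control 2. Its log2 fold change was -0.21 (SE 0.25), and -0.50 with the covariate (limma adjusted p = 0.0117). Polr1c, a subunit shared with RNA polymerase III, differed least in the class, at 664, 862 and 828 normalised counts in cKO 1 to 3, against 692, 870.4 and 917 in control 1 to 3. Polr1e, which encodes a subunit of the polymerase's initiation and elongation module, had 339, 423 and 449 normalised counts in cKO 1 to 3, against 388, 473 and 496 in control 1 to 3. The fold changes of these 2 genes were -0.07 (SE 0.14) and -0.17 (SE 0.14), and neither passed with the covariate (limma adjusted p = 0.204 and 0.103).

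The snoRNP proteins had the lowest class median, at -0.30 over 9 genes, and all 9 were lower at an unadjusted p under 0.05 with the replicate block, against 8.01% of all genes. In that fit it was 2 of 4 RNA polymerase I subunits, 4 of 8 small-subunit factors, 6 of 11 large-subunit factors and 4 of 6 multifunctional proteins. The order of the class medians changed with the libraries used. Without cKO 1 the median was -0.06 for snoRNP proteins and -0.07 for large-subunit factors. It was then -0.03 for small-subunit factors, -0.02 for multifunctional proteins and -0.00231 for RNA polymerase I. Without both libraries numbered 1 the lowest was -0.21, for multifunctional proteins, with snoRNP proteins at -0.19. In the box C/D particles, which carry out 2'-O-methylation of ribosomal RNA, Fbl encodes the methyltransferase fibrillarin, and it had 856, 1556 and 1362 normalised counts in cKO 1 to 3, against 1054, 1517 and 1732 in control 1 to 3. Nop56 and Nop58 encode the paired scaffold proteins of the same particles. Nop56 had 1763, 2891 and 2515 normalised counts in cKO 1 to 3, against 2169, 3433 and 3262 in control 1 to 3. Nop58 had 1392, 2291 and 1981 normalised counts in cKO 1 to 3, against 2033, 2365 and 2289 in control 1 to 3. For each of these genes cKO 1 was the lowest library, and at Nop58 the other 2 cKO libraries were within the range of the controls or just under it. Their log2 fold changes were -0.20 (SE 0.25), -0.31 (SE 0.22) and -0.27 (SE 0.17). With the covariate, Nop56 (-0.55, limma adjusted p = 0.0192) and Nop58 (-0.45, 0.0168) passed, and Fbl did not (-0.46, 0.0643). Rrp9, a protein specific to the U3 particle, had 395, 541 and 500.4 normalised counts in cKO 1 to 3, against 455, 568 and 610.5 in control 1 to 3, and the smallest difference of the class, -0.19 (SE 0.16).

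The box H/ACA particles convert uridines of ribosomal RNA to pseudouridine, and all 4 of their core proteins are in the list. Dkc1, the pseudouridine synthase dyskerin, had 893, 1778 and 1497 normalised counts in cKO 1 to 3, against 1325, 1975 and 1750.0 in control 1 to 3. Gar1 had 199, 424 and 406 normalised counts in cKO 1 to 3, against 341, 499 and 488 in control 1 to 3, so that cKO 1 held less than any other library by a wide margin and the other 2 cKO libraries lay between the lowest and the other controls. Its means were 343 ± 125 in the cKO libraries and 443 ± 88.4 in the controls (SD, n = 3 each), the largest fold change of the snoRNP class at -0.43 (SE 0.30, 95% interval -1.11 to 0.26). Nhp2 had 731, 1009 and 921 normalised counts in cKO 1 to 3, against 869.7, 1187 and 1219.8 in control 1 to 3. Nop10, the smallest of the core proteins, had 513, 900.2 and 825 normalised counts in cKO 1 to 3, against 847, 925 and 893 in control 1 to 3, and here control 1 was close to the other controls while cKO 1 was far below. With the covariate these 4 genes had log2 fold changes of -0.61, -0.76, -0.45 and -0.50, with limma adjusted p of 0.0105, 0.0112, 0.0316 and 0.0216. Nolc1, a chaperone that binds both kinds of snoRNP, had 1052, 1873 and 1517 normalised counts in cKO 1 to 3, against 1528, 2129 and 1941 in control 1 to 3. Its log2 fold change was -0.36 (SE 0.21), and -0.59 with the covariate (limma adjusted p = 0.0112).

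**Figure D4:**
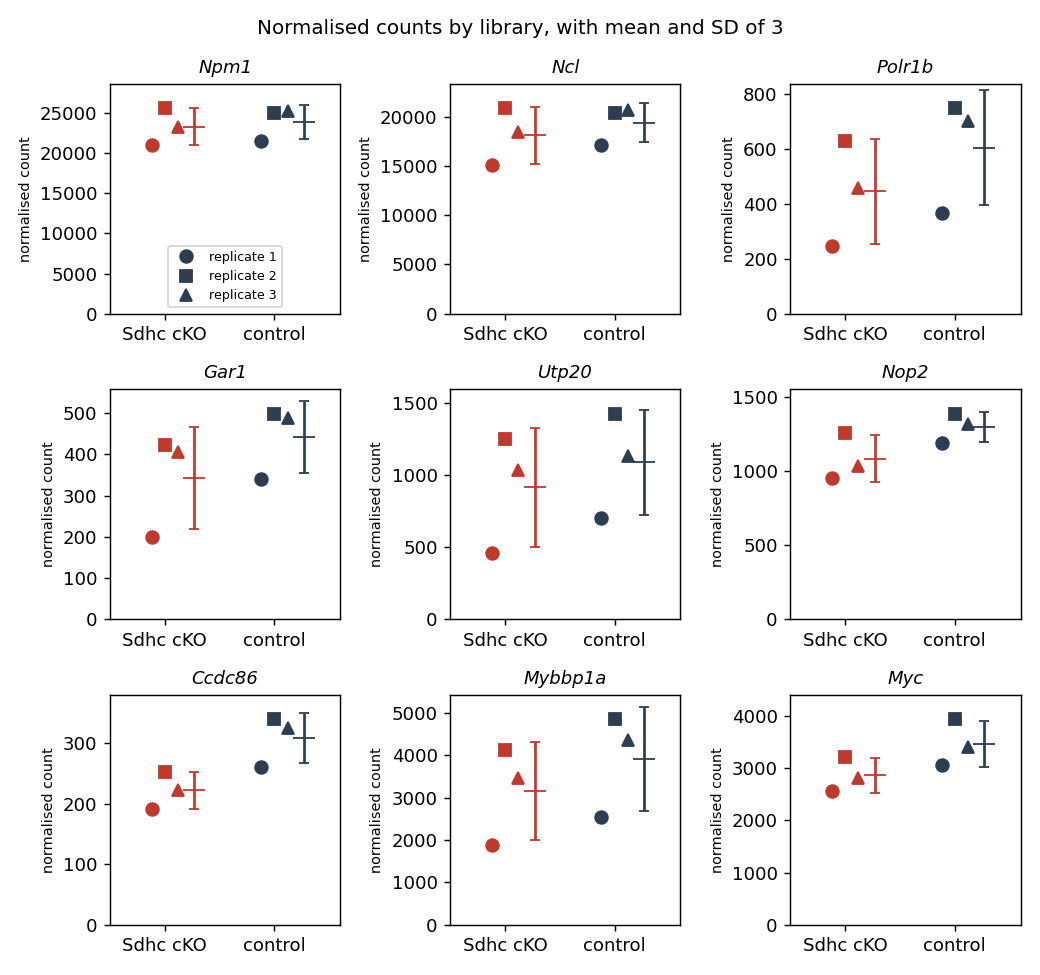
Normalised counts of 8 factors and of Myc in the 3 Sdhc cKO libraries, drawn left, and the 3 controls, with marker shapes for the replicate number and bars for the mean and SD of 3. The groups overlap in every panel but that of Ccdc86, and the circles, which are the libraries numbered 1, are the lowest of their group in all 9.

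Factors of the small subunit had a class median of -0.21 over 8 genes. Utp20, a very large scaffold protein of the small-subunit processome, had the widest spread of all 38 factors, with 456, 1252 and 1036 normalised counts in cKO 1 to 3, against 705, 1426 and 1135 in control 1 to 3. The within-group SD of its log2 values was 0.66, while the fold change was -0.32 in log2 units, with a 95% interval of -1.22 to 0.59; with the covariate it was -0.78 (limma adjusted p = 0.0101). Wdr43 and Wdr75 belong to the processome module that links transcription to processing. Wdr43 had 1361, 1981 and 1740.2 normalised counts in cKO 1 to 3, against 1693, 2120.0 and 2077 in control 1 to 3. Wdr75 had 750.2, 1069 and 912 normalised counts in cKO 1 to 3, against 941, 1162 and 1097 in control 1 to 3. In both genes control 1 lay between cKO 1 and the other 2 controls, and both passed with the covariate, at -0.38 (limma adjusted p = 0.0242) and -0.38 (0.0294). Rrp12, known in yeast for the export of both subunits, had 368, 612 and 493 normalised counts in cKO 1 to 3, against 455, 654 and 605 in control 1 to 3, and passed with the covariate in limma (-0.45, adjusted p = 0.0417) but not in edgeR (adjusted p = 0.0525). Nop14, a protein of the processome, differed least in the class, with 717, 775 and 823 normalised counts in cKO 1 to 3, against 729, 908 and 781 in control 1 to 3, at -0.06 in log2 units (SE 0.11). Nat10, the acetyltransferase of 18S ribosomal RNA, had 594, 887 and 659 normalised counts in cKO 1 to 3, against 606, 944 and 832 in control 1 to 3. The late pre-40S factors were at -0.12 for Tsr1 (SE 0.17) and at -0.19 for Ltv1 (SE 0.14) in log2 fold change. Tsr1 had 506, 696 and 563 normalised counts in cKO 1 to 3, against 508, 746 and 672 in control 1 to 3, and cKO 1 and control 1 were nearly equal. Ltv1 had 359.6, 497 and 398 normalised counts in cKO 1 to 3, against 435, 468 and 525 in control 1 to 3, with cKO 2 above 2 of the 3 controls. With the covariate none of Nop14, Nat10, Tsr1 and Ltv1 passed (limma adjusted p = 0.302, 0.154, 0.178 and 0.162).

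Factors of the large subunit had the class median smallest in size with all 6 libraries, -0.18 over 11 genes. Pes1, Bop1 and Wdr12 encode the 3 proteins of the PeBoW complex, which is needed to process the precursor of the 28S and 5.8S ribosomal RNAs, and their differences were unlike in size. Pes1 had 679, 1262 and 1051 normalised counts in cKO 1 to 3, against 924, 1402 and 1359.5 in control 1 to 3. Bop1 had 661, 1040.3 and 995 normalised counts in cKO 1 to 3, against 827, 1070.3 and 1102 in control 1 to 3. Wdr12 had 635, 785 and 689.9 normalised counts in cKO 1 to 3, against 665, 819 and 759 in control 1 to 3. All 3 were lowest in cKO 1, and their groups overlapped. Their log2 fold changes were -0.32 (SE 0.24), -0.17 (SE 0.19) and -0.09 (SE 0.12), with limma adjusted p of 0.0169, 0.0402 and 0.206 in the covariate fit; a difference between the 3 genes was not tested. Nop2, a cytosine methyltransferase of 28S ribosomal RNA, separated the groups better than most. It had 954, 1259.9 and 1033 normalised counts in cKO 1 to 3, against 1190.2, 1388 and 1319 in control 1 to 3, so that only cKO 2 reached above the lowest control. The means were 1082 ± 159 in the cKO libraries and 1299 ± 100.3 in the controls (SD, n = 3 each), which is -0.27 in log2 units with an SE of 0.12 and a 95% interval of -0.54 to 0.00326, and -0.36 with the covariate (limma adjusted p = 0.0362).

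Ftsj3, the counterpart of a yeast RNA methyltransferase of the pre-60S particle, had 654, 1245 and 1104 normalised counts in cKO 1 to 3, against 861, 1374 and 1300.1 in control 1 to 3. Rrs1, which in yeast brings the 5S ribosomal RNA into the particle, had 431, 608 and 513 normalised counts in cKO 1 to 3, against 541, 669 and 595 in control 1 to 3. Both were lowest in cKO 1 and highest in control 2, and both passed with the covariate in limma (-0.56, adjusted p = 0.0173, and -0.36, 0.0441). Rrp1b, a large-subunit factor of the nucleolus, had 1652, 1650.4 and 1462 normalised counts in cKO 1 to 3, against 1982, 1749 and 1549.8 in control 1 to 3. It was highest in control 1, and cKO 1 was level with cKO 2. Its log2 fold change of -0.14 (SE 0.11) was -0.10 with the covariate (limma adjusted p = 0.524). Ppan, the counterpart of a yeast factor for processing within the large-subunit precursor, was lowest in cKO 3, with 429.9, 484 and 411 normalised counts in cKO 1 to 3, against 429, 554 and 554 in control 1 to 3. Nop16, Nip7 and Wdr74, other pre-60S factors, had log2 fold changes of -0.18, -0.18 and -0.13 (SE 0.12, 0.10 and 0.18). Nop16 had 413, 499.8 and 534 normalised counts in cKO 1 to 3, against 508, 534 and 591 in control 1 to 3. Nip7 had 544, 606 and 610.2 normalised counts in cKO 1 to 3, against 598, 726 and 676 in control 1 to 3, and its cKO values were above the lowest control in 2 of 3 libraries. Wdr74 had 368, 594 and 469 normalised counts in cKO 1 to 3, against 450.1, 527 and 569 in control 1 to 3, and cKO 2 was the highest of all 6. None of Ppan, Nop16, Nip7 and Wdr74 passed with the covariate (limma adjusted p = 0.184, 0.113, 0.0787 and 0.157).

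Of the 6 multifunctional nucleolar proteins, Ccdc86 was the single factor of the 38 whose groups did not overlap, where 5.64% of all tested genes had all cKO values below the controls. Ccdc86 (chromosome 19, 10941481 to 10949266, minus strand, GRCm38), a coiled-coil protein also known as cyclon, had 192, 252 and 223 normalised counts in cKO 1 to 3, against 261, 340.1 and 326 in control 1 to 3. The means were 222 ± 30.2 in the cKO libraries and 309 ± 42.0 in the controls (SD, n = 3 each), so the cKO mean was 71.9% of the control mean. This is -0.47 in log2 units with an SE of 0.15 and a 95% interval of -0.82 to -0.12. It did not pass on genotype alone (limma adjusted p = 0.978, unadjusted p = 0.0149), and a 2-sided permutation test, exact over the 6 libraries, gave 0.1 as its p, the smallest that 3 against 3 allows. With the covariate it was -0.60 (limma adjusted p = 0.0199), without cKO 1 it was -0.37, and without both libraries numbered 1 it was -0.49. Antisense exons of Ptgdr2 overlap 17.9% of the exon bases of Ccdc86, and those of Srr 32.3% of Tsr1. Whether reads were counted by strand is not given in the sources used here, so reads of such pairs cannot be told apart.

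Mybbp1a, a nucleolar protein that binds RNA polymerase I and takes part in ribosomal RNA transcription and processing, had 1880.1, 4127 and 3474 normalised counts in cKO 1 to 3, against 2534, 4852 and 4355 in control 1 to 3. The lowest library was cKO 1, followed by control 1, and the groups overlapped. The log2 fold change was -0.33 (SE 0.33), 0.00666 without cKO 1, and -0.70 with the covariate (limma adjusted p = 0.0152). Gnl3, the GTPase nucleostemin, had 415, 756 and 644 normalised counts in cKO 1 to 3, against 554, 855 and 854 in control 1 to 3. Ddx21, an RNA helicase that works with RNA polymerases I and II, had 4351, 6069 and 5369 normalised counts in cKO 1 to 3, against 5247, 6491 and 6080.4 in control 1 to 3. Both passed with the covariate, at -0.60 (limma adjusted p = 0.0215) and -0.32 (0.0267).

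The 2 most abundant factors differed little. Nucleophosmin, encoded by Npm1 (chromosome 11, 33152287 to 33163206, minus strand, GRCm38), is a histone and ribosome chaperone of the outer nucleolus, and it had 20998, 25576 and 23301 normalised counts in cKO 1 to 3, against 21447, 25014 and 25184 in control 1 to 3. Nucleolin, encoded by Ncl (chromosome 1, 86344719 to 86359400, minus strand), binds the ribosomal RNA precursor and its chromatin, and it had 15093, 20847 and 18404 normalised counts in cKO 1 to 3, against 17083, 20335 and 20699.6 in control 1 to 3. In both genes cKO 2 was the highest of the 6 libraries. The log2 fold changes were -0.04 (SE 0.11, 95% interval -0.29 to 0.22) and -0.10 (SE 0.14, 95% interval -0.42 to 0.21), and neither passed with the covariate (limma adjusted p = 0.359 and 0.111). Of the 50-base windows of the annotated Npm1 transcripts, 24.3% also occur in transcripts of other genes, of which Gm9118 shared the most, so that reads may be split or lost there. The share was 18.7% to 20.4% for Pes1, Fbl and Nop56.

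Levels between factors spanned a wide range. Per kilobase of the principal coding transcript, averaged over the 6 libraries, Npm1 had 14444 normalised counts and ranked 107 of 10922 tested coding genes, and Ncl had 2285, over an annotated transcript of 8202 bases that lowers its figure. The snoRNP proteins Nop56 and Nop58 followed with 1424 and 1202 normalised counts per kilobase, then Ddx21 with 1186 and Fbl with 1125. From Nop56 to Fbl the SDs of these levels over the libraries of a group were larger than the gaps between neighbours, with 1 exception. The SD of Nop58 in the controls, 102, was smaller than its gap to Nop56. The order of these 4 is not settled. At the low end stood Ccdc86 with 88.4, Utp20 with 114, Rrp12 with 122 and Polr1b with 131 normalised counts per kilobase, and the last 3 differed by less than their SDs. The median over the 38 was 345, against 189.8 over all tested coding genes, and 31 of the 38 lay above that value. Together the 38 genes took 0.338% to 0.485% of the reads of a library, lowest in cKO 1.

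Promoter sequence was examined because the factors varied together across libraries. The hexamer CACGTG, the canonical E-box that reads the same on both strands and is bound by MYC with MAX and by other factors, was searched in RefSeq windows (GRCm38.p6) of 250 bases before to 50 bases after the annotated start. Windows were found for 33 of the 38 factors, and 8 of the 33 (24.2%) held the hexamer, against 1066 of 9028 tested genes with a window (11.8%) and 8.09% of all 27025 genes with one. Of the other ribosome biogenesis genes described below, 21 of 114 (18.4%) held it. The 8 stretches around it are shown, 5′ to 3′ on the strand of the gene, with the hexamer in capitals; in 7 of the 8 it begins within 41 bases after the start, and at Nop2 60 bases before it.
Ccdc86: ctacagaggctaCACGTGagccatggatac
Ltv1: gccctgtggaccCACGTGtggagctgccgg
Mybbp1a: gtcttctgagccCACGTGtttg
Nop2: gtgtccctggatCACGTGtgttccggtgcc
Pes1: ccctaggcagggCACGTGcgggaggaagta
Tsr1: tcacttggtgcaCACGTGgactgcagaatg
Utp20: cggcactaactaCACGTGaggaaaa
Wdr43: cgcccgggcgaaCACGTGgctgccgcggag
They lie at chr19:10949226-10949255 (minus strand), chr10:13193092-13193121 (minus), chr11:72441355-72441376 (plus), chr6:125131811-125131840 (plus), chr11:3963965-3963994 (plus), chr11:74898092-74898121 (plus), chr10:88826765-88826789 (minus) and chr17:71616220-71616249 (plus). The 8 genes had a median log2 fold change of -0.29, and the 25 factors with a window and no CACGTG had a median of -0.21; all 33 values were negative, and no test was made of the difference. A match describes these letters and shows no binding.

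Myc itself had 2558, 3222 and 2818 normalised counts in cKO 1 to 3, against 3070.3, 3942 and 3411 in control 1 to 3. The means were 2866 ± 335 in the cKO libraries and 3474 ± 439 in the controls (SD, n = 3 each), which is -0.28 in log2 units with an SE of 0.12 and a 95% interval of -0.55 to -0.000786, with limma adjusted p of 0.978 on genotype alone and 0.0214 with the covariate (-0.38). In each comparison of same-numbered libraries Myc was lower in the cKO library, by log2 differences of -0.26, -0.29 and -0.28. Of all tested genes, 21.8% were lower in all 3 comparisons. The lowest library of Myc was cKO 1, as for 32.0% of all tested genes, and its highest was control 2, as for 18.8%. A link between Myc and the values of the factors was not tested.

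Some of the factors carry small nucleolar RNA genes in their introns or exons, so that their transcripts are also the source of guide RNAs. By the annotation, 23 such genes lay on the same strand within 8 of the 38: 5 in Nop56, 4 in Nop58, 3 each in Ncl, Wdr43 and Gnl3, 2 each in Tsr1 and Ppan, and 1 in Dkc1. The hosts had a median log2 fold change of -0.24 and the other 30 factors one of -0.21. The 38 genes were spread over 17 chromosomes.

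Beyond the 38, a wider list of 146 tested genes of ribosome biogenesis had a median closer to 0; the difference between the lists was not tested. Negative values were found for 128 of them, the median was -0.12, and 0 passed on genotype alone, with 1 at an unadjusted p under 0.05. With the covariate 34 of the 146 (23.3%) were lower and 0 higher, against 22 of the 38 (57.9%) and the 4.86% of all genes. The further RNA polymerase I genes, some of them for subunits shared with other RNA polymerases, had a median of -0.09 over 17. They ran from Tcof1, the polymerase cofactor treacle, at -0.18 to Ttf1, the transcription termination factor, at 0.13. The other snoRNP genes, mostly assembly factors, had a median of -0.17 over 10, with extremes at Shq1 (-0.32), a chaperone of dyskerin, and Znhit3 (0.03). Small-subunit factors had a median of -0.13 over 50, from Pno1, which works on the pre-40S particle, at -0.40 to Tsr3, which modifies 18S ribosomal RNA, at 0.23. Large-subunit factors had one of -0.12 over 55, from the helicase gene Ddx51 at -0.33 to Spata5l1 at 0.20. The exosome and nuclease genes had one of -0.10 over 14, from the exonuclease gene Dis3 at -0.25 to the exosome subunit gene Exosc4 at 0.08.

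Ribosomal protein genes, whose products the factors assemble, had other values across the libraries. Negative values were found for 23 of the 82 tested, around a median of 0.05, and 0 passed on genotype alone. The library cKO 1 was the highest of the 6 for 58 of these 82 genes, against 26.5% of all tested genes. It was the lowest for 36 of the 38 factors, against 32.0% of all tested genes. In the comparison of number 1, 16 of 82 ribosomal protein genes were lower in the cKO library, with a median of 0.15. In that of number 2 it was 18 of 82, with a median of 0.07, and in that of number 3 it was 80 of 82, with a median of -0.08. Of all tested genes, 54.8%, 53.0% and 52.9% were lower in the comparisons of number 1, 2 and 3. Without both libraries numbered 1 their median was -0.00274, with 43 of 82 negative, and without cKO 1 alone it was -0.02. With the covariate in limma 2 of the 82 were called lower and 3 higher, against 4.86% and 1.65% of all genes. In edgeR it was 1 lower and 5 higher, against 3.35% and 1.93% of all genes. None of the 38 factors was called higher in either fit.

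**Figure D5:**
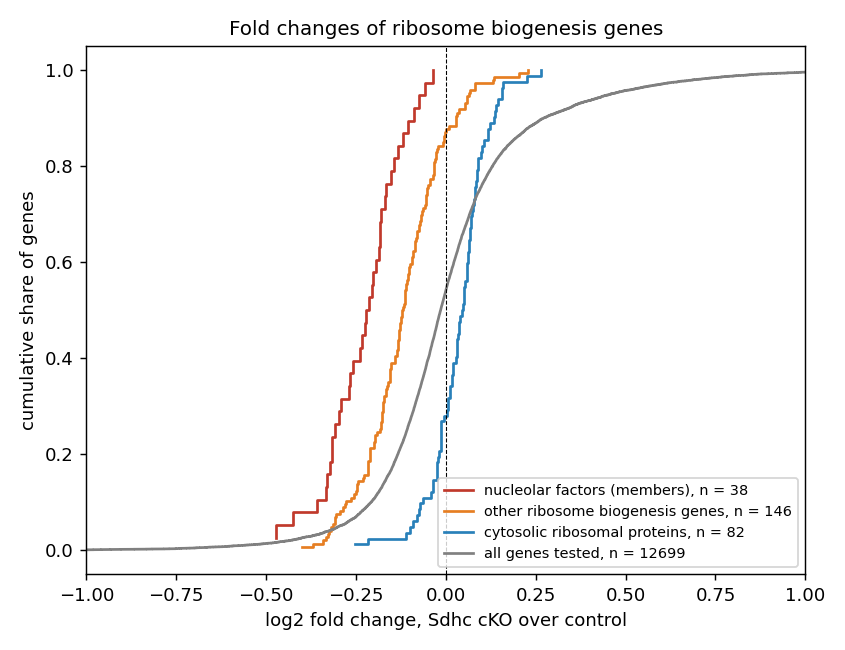
Cumulative share of genes against the log2 fold change, Sdhc cKO over control, from the fit on genotype alone, for the 38 factors, 146 other ribosome biogenesis genes, 82 ribosomal protein genes and all 12699 tested genes. The curve of the 38 factors lies wholly below 0, with the median at -0.22, the wider list has its median at -0.12, and the ribosomal proteins have theirs at 0.05.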

How the data were processed

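RNA of 6 libraries of Th1 cells, 3 Sdhc cKO and 3 control, was used; the other 6 of the series' 12 samples were not analysed here. The deposited values are a signal of normalised counts per gene symbol, and the submitters' processing notes name STAR, HTSeq, DESeq2 and the build mm10, with versions and settings not given in the sources used here. Multiplied by 1 size factor per library, 100% of the values were whole numbers within 0.01, and these recovered reads (18144933 to 21983821 per library) served the count tests. In 22 rows the symbol had the form of a date.

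Because the values were normalised, the main test was limma 3.58.1 (trend) on log2(value + 1) in R 4.3.3, in place of edgeR planned for raw counts, with genotype alone, over the 12699 genes above 10 in at least 3 libraries. P-values were adjusted by Benjamini-Hochberg over all of these genes, with a threshold of 0.05. edgeR 4.0.16 called 0 genes on the recovered reads and 670 with a covariate for the share of Y-linked reads, scaled to the highest library; DESeq2 1.42.0 called 2. The scripts were tested on simulated data.

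The correlation over genes of the within-group deviations was 0.579 between the libraries numbered 1, 0.458 between those numbered 2 and 0.188 between those numbered 3, so the numbers were taken to pair the libraries. The labels do not state such a pairing, the 3 deviations of a group sum to 0, and cKO 3 correlated more with control 2 (0.272) than with control 3.

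The 38 genes and all lists were chosen with earlier results of these data known. Every library's value is given for factors whose groups did not overlap, that passed the threshold in any fit on all 6 libraries, or that were the most abundant or most extreme of their role, and for the others as well. Levels per kilobase use the principal transcript of GENCODE M21. Lists of markers were summed per library. One marker list is not reported here. Alternatives covered scaling, filter, pseudocount, tool, array weights, the replicate block, the Y-linked covariate and each library left out.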

Additional observations from a re-analysis of the deposited data

How the results depend on the processing

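All 38 factors had negative fold changes under TMM, upper-quartile and library-total scaling, other filters and pseudocounts, array weights, edgeR, DESeq2, limma-voom, the block and the covariate, with medians of -0.38 to -0.18. In the fit on genotype alone, 0 factors, 0 genes of the wider list and 0 to 1 of all genes were called with a library left out, the 1 without cKO 1. Of all genes, 1 was called with array weights (a fit that did not fully converge), 2 by DESeq2 and 3 without both libraries numbered 1. With the replicate block 1 gene and 0 factors were called, and the block changed no call of a factor. With the Y-linked covariate in limma, 22 factors, 34 genes of the wider list and 826 of all genes were called, and in edgeR 19, 28 and 670. Covariate fits in limma with a library left out were chosen after seeing the data. They called 0 factors, 0 genes of the wider list and 11 of all genes without cKO 1, 20, 30 and 558 without cKO 2, and 10, 14 and 202 without cKO 3. They called 22, 37 and 953 without control 1, 5, 2 and 89 without control 2, and 17, 22 and 559 without control 3. The factors' median stayed between -0.41 and -0.34 in these fits, at -0.41 without cKO 1, against -0.38 with all 6 libraries.

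With a library left out of the fit on genotype alone, 11 factors reached a value above 0. Their lowest and highest values were -0.40 to 0.0554 for Polr1a, -0.20 to 0.0420 for Polr1c, -0.41 to 0.0521 for Fbl, -0.60 to 0.12 for Utp20, -0.13 to 0.0307 for Nop14, -0.30 to 0.0371 for Bop1, -0.30 to 0.0412 for Wdr74, -0.47 to 0.0220 for Ftsj3, -0.21 to 0.0212 for Ncl, -0.11 to 0.0356 for Npm1 and -0.62 to 0.00666 for Mybbp1a. Why these values moved was not tested.

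With 3 libraries a group, no exact permutation p can go below 0.1. The genotype and the libraries' other differences rest on 6 libraries.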

Other observations

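Of 18 listed noncoding RNAs that host small nucleolar RNA genes, 9 had a row and were tested. Their log2 fold changes were positive for 7 of 9, against 5829 of 12699 for all tested genes. The median was 0.11, where the 38 protein factors had -0.22. Snhg7 had 184, 172 and 189 normalised counts in cKO 1 to 3, against 114, 136 and 163 in control 1 to 3. All of its cKO values were above the controls, where 4.51% of all tested genes were so. Its log2 fold change was 0.41 (SE 0.16, limma adjusted p = 0.978). Gas5, the most abundant of them, had 5641, 5920.05 and 7085 normalised counts in cKO 1 to 3, against 7326, 5481 and 6185 in control 1 to 3, and a log2 fold change of -0.02.

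Reads on Gm26917 and Gm26924, gene models known for holding sequence like that of ribosomal RNA, took 7.96% to 9.93% of a library's reads. The share was 9.47%, 9.35% and 9.93% in cKO 1, 2 and 3, against 7.96%, 9.02% and 9.10% in control 1, 2 and 3. Normalised counts of Gm26917 were higher in every cKO library than in any control, as for 4.51% of all tested genes. Those of Gm26924 overlapped between the groups. Neither gene passed on genotype alone.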
